A study of Mus musculus with 17 samples.

Results

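Mouse pancreatic islets, the small endocrine organs that hold the insulin-secreting beta cells, held a set of 105 genes whose transcripts stood lower after 24 h of culture than at 0 h and higher again at 48 h. Each gene was represented by its probe set of highest mean, a probe set being the group of array probes that reads 1 transcript. A gene was a member if its 0 h mean was above 5 on the log2 scale, its 24 h mean was at least 0.5 below its 0 h mean, and its 48 h mean was at least 0.35 above its 24 h mean. Of 18193 measured genes, 8882 passed the level minimum and 112 of these met both differences. A list of symbols fixed in the rule removed 7 of the 112: Acta2, Col3a1, Csf1r, Kcnf1, Laptm5, Lyz1 and Lyz2. The members were thus chosen on these same expression values, so all their levels and differences between times are given as a description, with no test.

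The islets came from C57BL/6 mice, with no genetic change or treatment named in the labels and no age given there. There were 6 batches, each 1 pool of islets from 4 mice that was divided among the 3 times, and each portion gave 1 array (Affymetrix Mouse Genome 430 2.0). The 3 times thus have 5, 6 and 6 arrays. For batch 5 no 0 h value was used here, so the 24 h and 48 h means hold a batch that the 0 h mean lacks. All portions were kept in F12K medium with 10% fetal bovine serum. The replicate number is the batch, and a pool has no spread between single animals.

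Islets are more than beta cells: they also hold other endocrine cells, capillaries, matrix-producing cells and resident macrophages. Beta cells make large amounts of secreted protein, which is threaded into the endoplasmic reticulum (ER), folded there by chaperones and disulfide isomerases, and trimmed in the Golgi. Isolation takes islets out of the blood supply and cuts them from the surrounding tissue, and culture then replaces both with medium. In whole islets, fewer cells of a type and less RNA per cell cannot be told apart, and this holds for every gene below.

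The defining hormones were high at all times. Ins2, an insulin gene, averaged 13.76 at 0 h, 13.73 at 24 h and 13.69 at 48 h on the log2 scale. Gcg, which encodes glucagon, averaged 12.82, 12.77 and 12.66 at the 3 times. The arrays correlated with each other at 0.976 to 0.995, and 2 of them stood apart from the others of their time: 0 h replicate 3 and 24 h replicate 5.

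Over the 105 members the median level at the 3 times was 6.81, 6.05 and 6.54. The median difference was -0.76 between 24 h and 0 h and 0.48 between 48 h and 24 h, where all 8882 genes above the level minimum had medians of -0.03 and 0.05. The differences at 24 h ran from -2.89 to -0.50, and 29 members stood at least 1 log2 unit below 0 h. The pattern was uncommon: 1.26% of the 8882 genes met both differences, while 5.83% were at least 0.5 lower at 24 h. Of the 518 genes that were at least 0.5 lower at 24 h, 366 (70.7%) stayed within 0.35 of that level at 48 h, 40 went at least 0.35 lower still, and 112 (21.6%) stood at least 0.35 higher.

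Recovery was mostly partial. The share regained, the 48 h gain as a percentage of the 24 h shortfall, had a median of 64.9% and ran from 19.3% in Rgs2 to 158% in C8g. It was at least 100% in 14 members, 50% to under 100% in 60 and under 50% in 31. The 14 that were back at or above their 0 h mean were Adora3, Bgn, C8g, Cbs, Ccdc117, Ccn2, Echdc2, Fkbp2, Folr1, Ptprd, Smim1, Tafa1, Trpm3 and Zfp692. The name of the set, genes that dip and recover, thus fits 14 members in full and the other members in part.

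**Figure D1:**
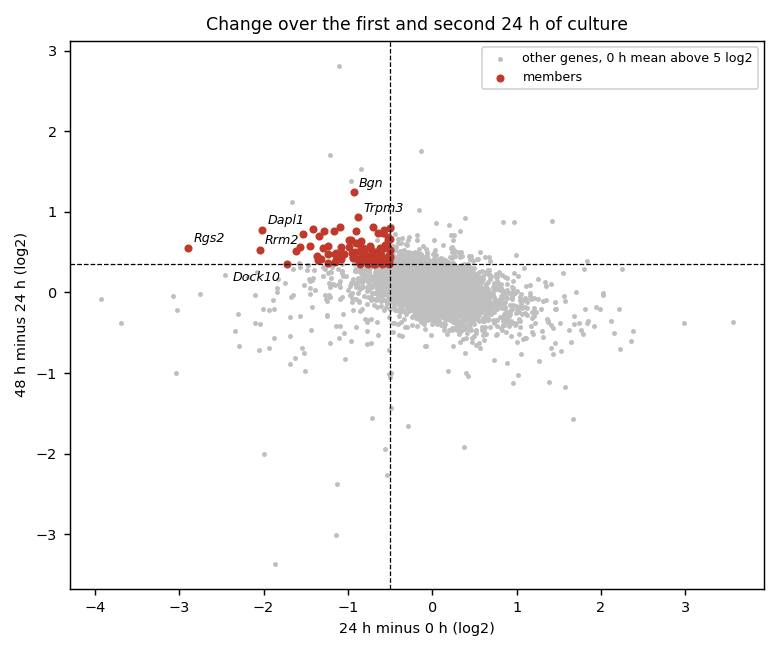
Each point is 1 of the 8882 genes with a 0 h mean above 5. The x axis gives the 24 h mean minus the 0 h mean and the y axis the 48 h mean minus the 24 h mean, both in log2 units, and the dashed lines mark -0.5 and 0.35. Members are red and other genes grey. Rgs2 lies farthest left at -2.89 and Bgn highest at 1.25 among the members, and the 7 grey points in the same corner are the genes left out by symbol.

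The thresholds cut through a continuum. Smim1 (-0.50 at 24 h, then 0.53) and Zfp692 (-0.50, then 0.67) lay just inside the limit on the 24 h difference, and Cxadr (-0.50, then 0.37) and Gnb4 (-0.49, then 0.40) just outside it. Dock10 and B3gnt9 lay just inside the limit on the second difference, each at 0.35, and Erc2 and Rbbp6 just outside it, also at 0.35 after rounding.

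The spread between arrays was wider than for genes in general. Over the 3 times the median SD of a member was 0.28, 0.31 and 0.25, against 0.16, 0.19 and 0.17 over all genes above the level minimum. In 66 members all 6 arrays at 24 h lay below all 5 at 0 h, a pattern found in 7.82% of the 8882 genes. In 24 members they lay below all 6 at 48 h (1.63% of all), and in 16 they lay below both (0.63% of all). Since the rule used both contrasts, these shares carry no test. The 16 were Adora3, Bco2, Bgn, Chid1, Cntnap2, Dapl1, Echdc2, Hapln1, Plut, Ralgps2, Rhobtb1, Sec63, Tcim, Trim9, Ucn3 and Utrn.

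Batch by batch, 88 of the 105 members were lower at 24 h than at 0 h in all 5 batches that have both times. That held for 16.1% of the 8882 genes above the level minimum. In 62 members the 48 h array was above the 24 h array in all 6 batches (8.53% of all). Both held in 5 of 5 batches for 57 members (3.81% of all). The rule used these same arrays, so the counts carry no test.

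Arrays of the same time differed in how low they stood, in members and in all genes. The mean over all 105 members ran from 6.96 to 7.15 at 0 h, 5.96 to 6.30 at 24 h and 6.62 to 6.77 at 48 h. At 24 h, replicate 5 was the lowest array in 41 of the 105 members and replicate 6 in 37. Replicate 5 was the lowest 24 h array in 43.3% of all 8882 genes, so its low standing was not particular to members. Replicate 6 was lowest in 24.6% of all, a smaller share than among members. Averaged over all those genes, 24 h replicate 5 stood at 7.33 and the other 24 h arrays at 7.46 to 7.50. When each array was left out in turn, 46 members met the rule in all 17 cases and 59 missed it in at least 1. Without 24 h replicate 5, 33 members no longer met it, and without 24 h replicate 6, 20. With each array centred on its median, 112 genes met the rule, and 97 of them were among the 105. What part the level of these arrays plays in the pattern was not tested beyond these counts.

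**Figure D2:**
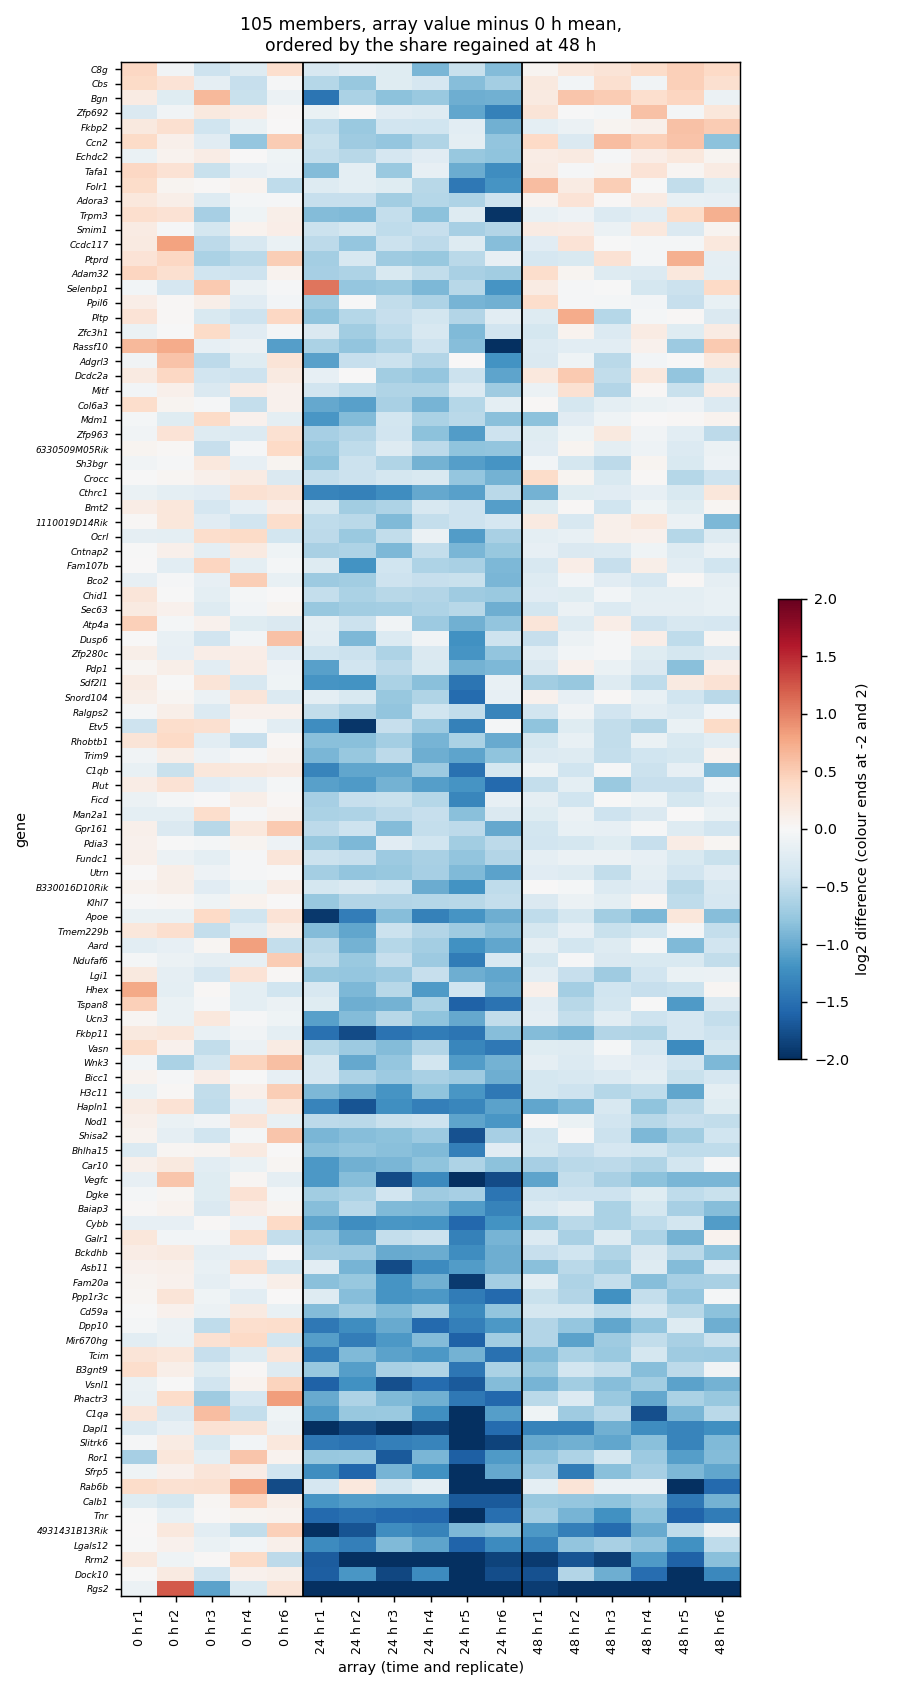
Each row is a member and each column an array, in order of time and replicate. Colour is the array's log2 value minus the gene's 0 h mean, from blue (lower) to red (higher), ending at -2 and 2. Rows run from the member with the largest share regained (C8g, 158%) at the top to the smallest (Rgs2, 19.3%) at the bottom. The middle block of 24 h columns is blue in nearly all rows, and the 48 h block is paler in most rows, closest to white or red in the top ones.

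A batch that had no part in the choice gives the same measure in arrays the rule did not use. Members were chosen again from the other batches, 1 batch at a time, and described in the batch left out. Over the 5 batches with all 3 times this gave 606 pairs of a gene and a batch. In 458 of them (75.6%) the gene was lower at 24 h than at 0 h and then higher at 48 h, against 34.5% over all genes above the level minimum. The pairs are not independent, since a gene can recur in several batches and all genes of a batch share its arrays. The 2 differences of a batch share its 24 h array. Lower values at 24 h were found in 91.3% of the pairs (50.4% over all genes) and higher values at 48 h in 81.2% (55.0%).

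The median differences in the batch left out were smaller than the full set's in every batch, though only slightly at 24 h in batch 6 (-0.758 against -0.760). Batch 6 gave -0.76 and then 0.33 over 100 genes, and batch 2 gave -0.73 and 0.39 over 108. Batch 1 gave -0.75 and 0.35 over 121 genes, and batch 4 gave -0.62 and 0.38 over 128. Batch 3 gave the smallest, -0.41 and 0.22 over 149 genes, with 69.1% of them moving both ways. Batch 5, which has no 0 h array here, gave a second difference of 0.44 over 100 genes, 85 of them higher at 48 h. The genes chosen differ somewhat from batch to batch, and each batch has 1 array a time.

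**Figure D3:**
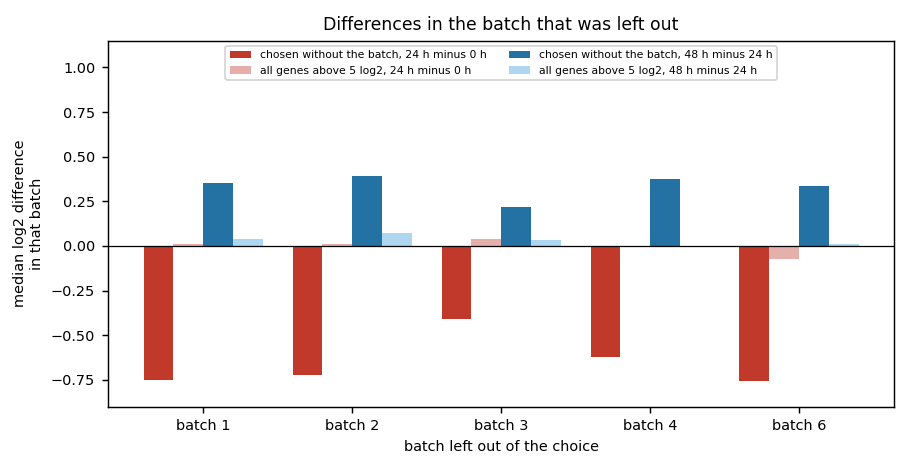
For each of the 5 batches with all 3 times, left out of the choice in turn, the bars show the median log2 difference in that batch, red for 24 h minus 0 h and blue for 48 h minus 24 h. Dark bars are the genes chosen from the other batches and pale bars all genes above the level minimum. Dark red bars reach from -0.41 in batch 3 to -0.76 in batch 6, dark blue bars from 0.22 to 0.39, and pale bars stay close to 0.

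Other probe sets of the same genes give a second reading of the transcript on the same arrays. Of the 105 members, 59 had at least 1 further probe set, 108 in all, and 39 of those (of 30 genes) had a 0 h mean above 5. Of these 39, 37 were lower at 24 h and then higher at 48 h (94.9%, against 35.5% of 4467 such probe sets of all genes). Their median differences were -0.59 and 0.35, and 13 met both thresholds. Both exceptions were probe sets of Sec63, which differed by 0.04 and 0.09 at 24 h and by 0.40 and 0.32 thereafter. Probe sets of 1 gene share the RNA of the array and are not replicates.

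The members are described next by what their products do. These 7 groups were drawn up with the members already known. Medians and ranks of the groups use the same differences as the rule, so they are description only. They hold 48 members, and 57 fall in none.

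The first group, 8 members, works in the ER and Golgi, except for Bhlha15, a transcription factor of secretory cells that was placed with them. Its median difference was -0.65 at 24 h and 0.45 between 48 h and 24 h, and its median share regained was 65.1%. Fkbp11, an ER-resident prolyl isomerase, measured 7.03, 7.08, 6.70, 6.77 and 6.64 at 0 h. At 24 h its lowest, median and highest values were 5.05, 5.37 and 5.99, and at 48 h 5.93, 6.25 and 6.51. All 24 h arrays lay below all 0 h arrays, and the 24 h and 48 h arrays overlapped slightly. The 24 h mean was 2.66-fold lower than at 0 h (-1.41 ± 0.15, SE), and the 48 h mean 1.73-fold higher than at 24 h (0.79 ± 0.16).

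Sdf2l1, an ER protein that works with the chaperone BiP and its partners, measured 9.29, 9.10, 9.37, 8.79 and 9.02 at 0 h. Its values were 7.66, 8.11 and 8.97 (lowest, median, highest) at 24 h and 8.36, 8.73 and 9.41 at 48 h. The groups overlapped at each step, with differences of -0.91 ± 0.22 and 0.62 ± 0.27. Fkbp2, a second prolyl isomerase of the ER, was among the most abundant members at 11.22 ± 0.28 (SD, n = 5) at 0 h, 10.69 ± 0.27 (n = 6) at 24 h and 11.37 ± 0.32 (n = 6) at 48 h. Its 24 h arrays all lay below its 48 h arrays but overlapped with those at 0 h. It missed the rule without 0 h replicate 1 or 2 and without 24 h replicate 2 or 6.

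Pdia3, the disulfide isomerase that acts on glycoproteins, measured 11.01, 10.90, 10.88, 10.98 and 10.82 at 0 h. It stood at 10.02, 10.31 and 10.69 (lowest, median, highest) at 24 h and 10.46, 10.62 and 11.07 at 48 h. The 24 h arrays all lay below those at 0 h, and 64.6% of the difference was regained. Leaving out 24 h replicate 1 or 2, or 48 h replicate 5 or 6, took it out of the set.

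Sec63, which helps thread new proteins through the ER membrane, was tightly grouped. It measured 9.58, 9.48, 9.13, 9.34 and 9.45 at 0 h, 8.43 to 8.84 at 24 h and 9.02 to 9.28 at 48 h. The 24 h arrays overlapped with neither other time, and the differences were -0.71 ± 0.10 and 0.50 ± 0.07. The Sec63 probe sets disagreed at 24 h, as given above.

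Ficd, the enzyme that modifies BiP, differed by -0.60 ± 0.16 and then 0.39 ± 0.17, and Man2a1, a Golgi mannosidase, by -0.56 ± 0.13 and 0.36 ± 0.10. Bhlha15 (Mist1), a transcription factor of secretory cells, measured 9.26, 9.58, 9.59, 9.72 and 9.54 at 0 h. It stood between 8.17 and 9.31 at 24 h and between 9.03 and 9.20 at 48 h, with differences of -0.82 ± 0.17 and 0.40 ± 0.15. Bhlha15 is also a marker of acinar cells, the exocrine cells around islets. The summed linear level of 19 acinar markers, Bhlha15 included, had a median of 2161 (range 1298 to 7399) at 0 h, 1302 (535 to 3433) at 24 h and 852 (743 to 1386) at 48 h. Amy1, Ctrc, Gp2, Ptf1a and Rbpjl stood below the table's median of 3.52 at every time. The part of acinar cells in the Bhlha15 values was not tested.

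Other genes of ER folding were taken from a list. In this and each later list, the other genes are those left once the members were taken out. Their counts thus do not show whether a list shares the pattern. Of 24 measured ER chaperones and folding enzymes, 3 are members (Fkbp2, Pdia3 and Sdf2l1). Of the other 21, limma called 7 lower and 1 higher at 24 h than at 0 h (adjusted p under 0.05), where 6.66% and 5.44% of all 18193 genes were called lower and higher. Their median difference was -0.28, against -0.01 over all genes. Between 48 h and 24 h limma called 0 of the 21, where 0.759% of all genes were called (0.429% higher and 0.33% lower), and the median difference was 0.24. At 48 h against 0 h, 3 were lower and 1 higher (5.27% and 6.45% of all genes), with a median of -0.09. Those calls were few and unsteady: 1 was lower and 0 higher without 0 h replicate 1, 1 was lower after median centring, 5 were lower after quantile normalization or with an intensity trend in the prior, and the higher call was lost without any of several other arrays.

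Calr, the calcium-binding chaperone calreticulin, fell at 24 h by 0.85 (-0.85 ± 0.12, limma adjusted p = 7.76e-05) and was still lower than at 0 h after 48 h (-0.61, adjusted p = 0.00240). Txndc5, a disulfide isomerase, fell too (-0.64 ± 0.10, adjusted p = 0.000192). It was called lower at 48 h than at 0 h (-0.32, adjusted p = 0.0421), a call lost in 12 of 25 alternatives. Dnajc3, a BiP co-chaperone, differed by -0.49 ± 0.08 at 24 h (adjusted p = 0.000356) and by -0.20 from 0 h at 48 h, which did not pass (adjusted p = 0.142). Ero1b, the oxidase of beta cell ER, differed by -0.44 ± 0.08 at 24 h (adjusted p = 0.000619) and by -0.23 from 0 h at 48 h (adjusted p = 0.0638). The gene called higher at 24 h was Ero1a, a related oxidase (0.76, adjusted p = 0.00582), named here after its value was seen.

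**Figure D4:**
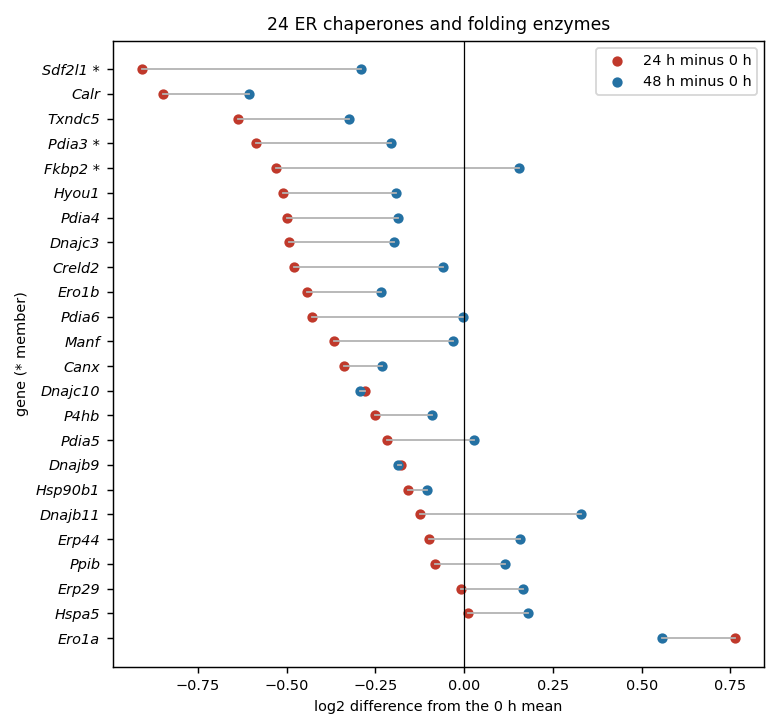
Each row is 1 of 24 ER chaperones and folding enzymes, ordered by the 24 h difference, with members marked by a star. Red points give the 24 h mean minus the 0 h mean and blue points the 48 h mean minus the 0 h mean, in log2 units. Sdf2l1 lies farthest left at 24 h (-0.91). For 3 genes, Dnajc10, Dnajb9 and Ero1a, the 48 h point lies left of the 24 h point, and for the other 21 it lies to the right.

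A wider list of ER translocation, glycosylation and cargo genes had 36 measured genes, with Sec63 the only member. Of the other 35, limma called 14 lower and 0 higher at 24 h than at 0 h, where 6.66% and 5.44% of all genes were called. Without 0 h replicate 1, 8 were called lower. Between 48 h and 24 h it called 3 higher and 0 lower (0.429% and 0.33% of all genes). The median differences were -0.24 and 0.13, against -0.01 and -0.0019 over all genes. Genes of the unfolded protein response and ER degradation, 21 of them measured, included 0 members. Of these, 6 were called higher and 4 lower at 24 h (5.44% and 6.66% of all genes).

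The upstream sequences of the ER members are shown because genes of this pathway often share an ER stress element, the letters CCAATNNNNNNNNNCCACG. The search covered both strands of the 250 bases before the farthest upstream start of each gene (RefSeq, GRCm38.p6). Capitals mark CCAAT and CCACG, the ends of that element, on either strand. Calr, which is not a member, is shown for comparison, since its window holds the element at positions -162 to -144 from the start. The windows are chr16:17132384-17132633 (minus strand) for Sdf2l1, chr2:121413652-121413901 (plus) for Pdia3, chr19:6980465-6980714 (minus) for Fkbp2 and chr8:84846932-84847181 (minus) for Calr.
Sdf2l1: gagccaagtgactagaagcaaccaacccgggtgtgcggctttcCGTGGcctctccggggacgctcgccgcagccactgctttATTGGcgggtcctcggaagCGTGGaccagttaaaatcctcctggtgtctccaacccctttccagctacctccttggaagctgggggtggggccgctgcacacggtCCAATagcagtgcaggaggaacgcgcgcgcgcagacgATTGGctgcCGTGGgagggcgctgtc
Pdia3: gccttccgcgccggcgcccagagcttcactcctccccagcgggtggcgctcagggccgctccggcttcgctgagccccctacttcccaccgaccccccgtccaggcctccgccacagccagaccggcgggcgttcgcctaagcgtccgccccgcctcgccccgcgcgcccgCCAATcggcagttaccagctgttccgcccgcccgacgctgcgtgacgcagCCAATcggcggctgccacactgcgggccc
Fkbp2: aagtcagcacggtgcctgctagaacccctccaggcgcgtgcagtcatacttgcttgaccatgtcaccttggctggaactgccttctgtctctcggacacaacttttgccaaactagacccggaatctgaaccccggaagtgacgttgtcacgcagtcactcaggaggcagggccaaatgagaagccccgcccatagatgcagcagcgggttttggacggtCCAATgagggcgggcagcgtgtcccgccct
Calr: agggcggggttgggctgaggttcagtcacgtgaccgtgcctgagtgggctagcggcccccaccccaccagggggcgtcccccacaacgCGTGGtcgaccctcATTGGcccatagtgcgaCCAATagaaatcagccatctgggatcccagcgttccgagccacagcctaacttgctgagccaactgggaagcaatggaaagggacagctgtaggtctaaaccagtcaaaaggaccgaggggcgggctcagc

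Windows were found for 83 of the 105 members and for 7309 of the 8882 genes above the level minimum. The whole ER stress element was present in 0 of the 83 member windows, in 8 of 21 windows of the ER chaperone list (38.1%) and in 12 of all 7309 (0.164%). With the element this rare over all genes, 0 of 83 does not set the members apart. Sdf2l1 has 3 copies each of CCAAT and CCACG, but in no copy at the spacing of the element. Pdia3 has 2 copies of CCAAT and Fkbp2 has 1, and neither holds CCACG.

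Over all member windows CCAAT was as common as elsewhere, in 36.1% against 36.2%, and the GC box GGGCGG was found in 55.4% against 61.8%. The ETS core CCGGAA was found in 8.43% of member windows and in 24.0% of all, TGACGT, the core of cAMP response elements, in 4.82% and 11.1%, and the AP-1 site TGANTCA in 7.23% and 3.65%. The E-box CACGTG was found in 6.02% and 8.98%, TATAAA in 4.82% and 5.75%, and CCACG in 31.3% and 44.0%. Member windows had a median GC content of 59.2% and 13 CpG sites, against 60.4% and 17 over all genes. These counts describe letters in 1 window a gene and show no binding.

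The second group holds 10 members that encode extracellular matrix proteins and secreted or surface-bound signals. It had the highest median gain between 24 h and 48 h of the 7 groups, 0.71, after a median difference of -1.01. Bgn (chrX:73483601-73495936, GRCm38.p6), which encodes biglycan, a small proteoglycan of the matrix, measured 5.78, 5.37, 6.26, 5.16 and 5.50 at 0 h. It stood at 4.16, 4.72 and 4.99 (lowest, median, highest) at 24 h and at 5.50, 5.99 and 6.16 at 48 h. Its 24 h arrays lay below every array of both other times, while the 0 h and 48 h arrays overlapped. Its 24 h mean was 1.91-fold lower than at 0 h (-0.93 ± 0.22) and its 48 h mean 2.37-fold higher than at 24 h (1.25 ± 0.15), the highest second-day difference of any member.

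Cthrc1, a secreted protein with a collagen-like repeat, measured 5.12, 5.05, 5.02, 5.54 and 5.50 at 0 h. Its values were 3.90 to 4.70 at 24 h and 4.30 to 5.46 at 48 h, with 74.5% regained. Col6a3, a chain of collagen VI, measured 8.32, 8.02, 7.95, 7.49 and 8.05 at 0 h, 6.88 to 7.77 at 24 h and 7.62 to 7.98 at 48 h. Its groups overlapped at both steps (-0.74 ± 0.19, then 0.57 ± 0.15). Ccn2, a matricellular protein formerly called connective tissue growth factor, measured 6.42, 6.12, 5.81, 5.25 and 6.54 at 0 h. Its values were 5.24 to 5.84 at 24 h and 5.21 to 6.65 at 48 h, and it left the set without 0 h replicate 1 or 6.

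Hapln1, which links proteoglycans to hyaluronan, measured 7.70, 7.81, 7.02, 7.37 and 7.74 at 0 h. It stood at 5.81, 6.22 and 6.45 (lowest, median, highest) at 24 h and 6.49, 6.86 and 7.29 at 48 h. Its 24 h arrays were below all others, and it was 2.53-fold lower at 24 h than at 0 h, with 52.2% regained. Tnr, the matrix glycoprotein tenascin-R, best known from brain, measured 7.58, 7.43, 7.61, 7.64 and 7.66 at 0 h. Its range was 5.55 to 6.10 at 24 h and 5.98 to 6.90 at 48 h, and it regained only 31.6%.

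Vegfc, the lymphatic growth factor VEGF-C, measured 5.19, 5.90, 5.10, 5.39 and 5.17 at 0 h. Its range was 3.02 to 4.50 at 24 h and 4.30 to 4.87 at 48 h (-1.53 ± 0.27, then 0.72 ± 0.24). Its lowest 24 h value was below 3.52, the median of the table, and such low values cannot be told from background here. Tafa1, a small secreted protein of the nervous system, measured 6.48, 6.36, 5.62, 5.90 and 5.95 at 0 h, 4.81 to 5.90 at 24 h and 6.04 to 6.33 at 48 h. All its 48 h arrays were above all its 24 h arrays. Sfrp5, a secreted Wnt antagonist, differed by -1.37 ± 0.23 and then 0.45 ± 0.23, and Vasn, a surface protein that binds TGF-beta, by -0.91 ± 0.21 and 0.50 ± 0.23.

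Other matrix genes were likewise those left once the members were taken out. Of the 29 measured, 14 passed the 0 h level minimum, and the rest could not be members. Col3a1, a collagen gene left out by symbol, met both differences (-1.10, then 2.82). Of 29 measured extracellular matrix genes, 2 are members (Bgn and Col6a3), and limma called 5 of the other 27 higher and 4 lower at 24 h than at 0 h (5.44% and 6.66% of all genes). Without 0 h replicate 1, 2 or 6 or 24 h replicate 3 or 4, 3 were called higher. Between 48 h and 24 h it called 2 higher and 1 lower (0.429% and 0.33% of all genes), each 1 or 2 over the alternatives. Timp3, an inhibitor of matrix proteases, fell at 24 h (-3.02 ± 0.14, adjusted p = 1.43e-10) and did not pass between 48 h and 24 h (-0.21, adjusted p = 0.592). Timp2, a related inhibitor, fell by 0.68 (-0.68 ± 0.09, adjusted p = 5.05e-05), and Lamb2, a laminin chain, by 0.52 (-0.52 ± 0.08, adjusted p = 0.000255). Col5a2, a chain of collagen V, rose at 24 h (0.80 ± 0.14, adjusted p = 0.000791) and again between 48 h and 24 h (1.86, adjusted p = 7.32e-07).

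The summed linear level of 15 fibroblast and stellate cell markers, Col6a3 among them, had medians of 658 at 0 h, 508 at 24 h and 723 at 48 h. Its ranges were 545 to 802, 485 to 593 and 531 to 765. Fbln2, Loxl1, Lum, Pdgfra and Thy1 stood below the table's median at every time. The sum of 12 pericyte and smooth muscle markers had medians of 711, 278 and 269. The ranges of that sum were 552 to 934, 257 to 302 and 260 to 334, and 3 of the 12 passed the 0 h level minimum. Acta2, a smooth muscle actin gene left out by symbol and not in that sum, met both differences (-1.66, then 1.13). The part of these cells in the matrix members was not tested.

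The third group is 4 genes of macrophages. C1qa and C1qb encode chains of complement C1q, Cybb the catalytic subunit of the phagocyte NADPH oxidase, and Apoe a lipid carrier that macrophages and other cells secrete. The median differences were -1.24 and then 0.61. Apoe measured 8.83, 8.84, 9.37, 8.58 and 9.25 at 0 h. It stood at 7.04, 7.71 and 8.12 (lowest, median, highest) at 24 h and 8.08, 8.37 and 9.20 at 48 h. The 24 h arrays were all below those at 0 h, at a mean 2.43-fold lower, and the highest 24 h array overlapped with the lowest at 48 h.

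C1qb measured 6.10, 5.80, 6.48, 6.45 and 6.41 at 0 h, 4.76 to 5.90 at 24 h and 5.33 to 6.23 at 48 h, with overlap at both steps. C1qa measured 7.04, 6.50, 7.41, 6.32 and 6.70 at 0 h, 4.32 to 6.05 at 24 h and 5.04 to 6.70 at 48 h. Its second difference, 0.48 ± 0.35, was close to its own SE, and it left the set without 24 h replicate 5 or 48 h replicate 1. Cybb measured 4.99, 5.00, 5.18, 5.06 and 5.56 at 0 h, 3.59 to 4.10 at 24 h and 4.04 to 4.80 at 48 h, and regained 46.5%.

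Other macrophage genes went several ways, and 16 of the 24 measured passed the 0 h level minimum. Among the genes left out by symbol, several that macrophages express met both differences. They were Csf1r (-1.58, then 0.37), Laptm5 (-0.66, then 0.65), Lyz1 (-1.21, then 1.70) and Lyz2 (-0.85, then 1.54). The 21 listed genes that are not members had median differences of -0.18 and then 0.20, against -0.01 and -0.0019 over all genes. Of 24 measured macrophage and dendritic cell markers, 3 are members, and of the other 21 limma called 5 lower and 2 higher at 24 h than at 0 h (6.66% and 5.44% of all genes), with 1 or 2 higher over the alternatives. Between 48 h and 24 h it called 1 higher and 2 lower (0.429% and 0.33% of all genes). Over the alternatives this was 1 to 4 in each direction, with 4 higher without 48 h replicate 6 and 4 lower without both arrays that stood apart. The 1 higher was Mpeg1, a pore-forming protein of macrophages (1.03, adjusted p = 0.00896), and the 2 lower were the class II antigen presentation genes H2-Aa (-0.88, adjusted p = 0.0314) and H2-Eb1 (-0.81, adjusted p = 0.00683). The H2-Aa call was lost in 8 of 25 alternatives. C1qc, the remaining C1q chain, was measured at -0.68 (adjusted p = 0.104) and then 1.05 (adjusted p = 0.0527), which did not pass. The second difference of C1qc passed in 8 of 25 alternatives, and the first in 0. These genes were named after their values were seen. The summed linear level of the 24 markers had a median of 2822 (range 2353 to 3777) at 0 h, 1570 (1353 to 1890) at 24 h and 1694 (1439 to 2025) at 48 h. Itgam and Mrc1 stood below the table's median at every time.

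The fourth group is 5 genes known from islet endocrine cells. Ucn3, which encodes urocortin 3, a peptide hormone of mature beta cells, measured 10.19, 10.02, 10.37, 10.14 and 10.08 at 0 h. It stood at 9.08, 9.33 and 9.67 (lowest, median, highest) at 24 h and 9.68, 9.78 and 9.99 at 48 h. The 3 times did not overlap at all, with 48 h between the others (-0.80 ± 0.12, then 0.45 ± 0.11). Plut (chr5:147228598-147271521, GRCm38.p6), a long noncoding RNA gene beside the beta cell transcription factor gene Pdx1, measured 8.44, 8.59, 8.07, 8.13 and 8.25 at 0 h. It measured 6.74 to 7.35 at 24 h and 7.55 to 8.25 at 48 h, so its 24 h arrays lay below all others. It was 2.24-fold lower at 24 h than at 0 h, and 65.9% was regained.

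Trpm3, a cation channel found in beta cells, measured 6.98, 6.94, 5.98, 6.56 and 6.77 at 0 h, 4.68 to 6.38 at 24 h and 6.36 to 7.35 at 48 h. Its groups overlapped and its mean at 48 h, 6.70 ± 0.39 (SD, n = 6), was close to that at 0 h, 6.64 ± 0.41 (n = 5). Hhex, the transcription factor of somatostatin-secreting delta cells, measured 7.56, 6.60, 6.84, 6.62 and 6.41 at 0 h, 5.68 to 6.49 at 24 h and 6.12 to 6.91 at 48 h. It left the set without 24 h replicate 4 or 48 h replicate 1 or 6. Sst, the somatostatin gene itself, stood at 11.00 at 0 h, 9.73 at 24 h and 9.69 at 48 h, and is not a member. Galr1, a receptor for the neuropeptide galanin, measured 7.58, 7.29, 7.30, 7.70 and 6.88 at 0 h, 5.99 to 6.92 at 24 h and 6.41 to 7.42 at 48 h, and left the set without any 1 of 4 arrays.

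Of 18 measured genes of beta cell identity and function, Ucn3 was the only member. Of the other 17, limma called 9 lower and 0 higher at 24 h than at 0 h (6.66% and 5.44% of all genes), and 5 lower without 0 h replicate 4. None was called between 48 h and 24 h, and 1 was higher without 24 h replicate 5. The median differences were -0.31 and 0.12. Of 9 genes of other endocrine cells besides Hhex, 4 were called lower and 0 higher at 24 h (6.66% and 5.44% of all genes), and 2 lower without both arrays that stood apart.

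**Figure D5:**
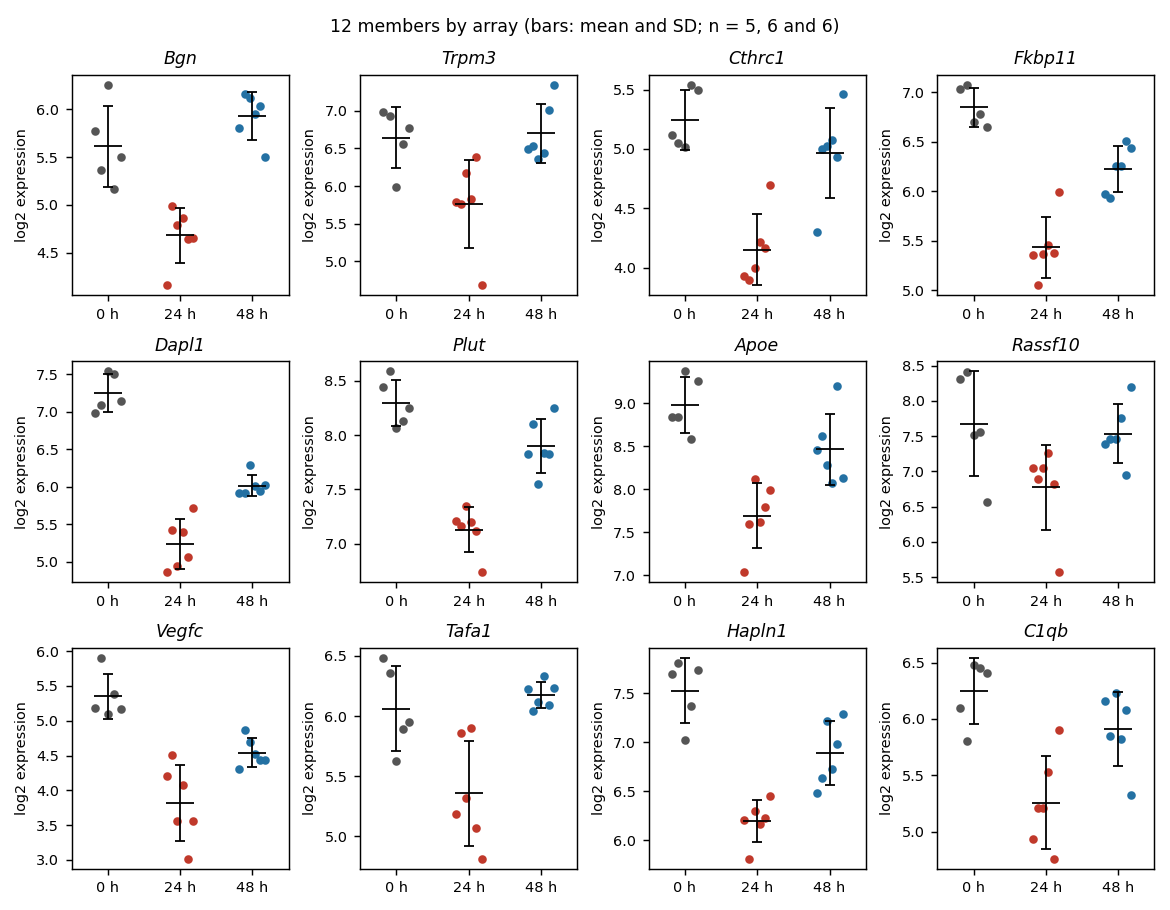
The 12 members whose smaller difference, of the 2 in the rule, was highest. Points are arrays, and the long and short bars show the mean and SD of each time (n = 5, 6 and 6 in order of time). The y axis is the log2 expression value and its range differs between panels. In Bgn, Dapl1, Plut and Hapln1 the 24 h points lie below all points of both other times, and in the other panels they overlap with at least 1 time.

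The fifth group is 11 surface and signalling proteins best known from neurons, many of which islet endocrine cells share. Its median differences were -0.88 and 0.52, and its median share regained, 47.9%, was the lowest of the 7 groups. Cntnap2, an adhesion protein of axons, measured 8.95, 9.07, 8.77, 9.15 and 8.88 at 0 h, 8.04 to 8.49 at 24 h and 8.68 to 8.87 at 48 h. Its 24 h arrays lay below all others. Slitrk6, a neuronal transmembrane protein, measured 8.94, 9.12, 8.65, 8.90 and 9.17 at 0 h, 6.97 to 7.64 at 24 h and 7.64 to 8.12 at 48 h. It stayed clear of its 0 h range at 48 h, with 36.0% regained.

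Vsnl1, a calcium sensor protein, measured 5.36, 5.48, 5.11, 5.55 and 5.93 at 0 h, 3.73 to 4.62 at 24 h and 4.42 to 4.79 at 48 h, with 40.1% regained. Calb1, the calcium-binding protein calbindin, differed by -1.32 ± 0.18 and then 0.42 ± 0.16, and Dpp10, a subunit of potassium channel complexes, by -1.29 ± 0.18 and 0.55 ± 0.14. Trim9, a ubiquitin ligase of neurons, was closely grouped at 6.85 ± 0.09 at 0 h (SD, n = 5), 6.01 ± 0.19 at 24 h and 6.57 ± 0.19 at 48 h (n = 6 each), with no overlap between 24 h and the others. The other 5, Adgrl3, Baiap3, Car10, Lgi1 and Ptprd, had differences of -0.53 to -0.94 at 24 h and of 0.42 to 0.56 thereafter.

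The sixth group is 3 genes that restrain or report receptor signalling. Rgs2, which speeds the shut-off of G proteins, had the largest 24 h difference of any member and the smallest share regained. It measured 10.16, 11.50, 9.20, 9.98 and 10.54 at 0 h, stood at 6.75, 7.49 and 7.85 (lowest, median, highest) at 24 h and at 7.46, 7.99 and 8.38 at 48 h. Both later times lay wholly below 0 h and overlapped with each other, and the 24 h mean was 7.42-fold lower than at 0 h. Etv5, an ETS transcription factor downstream of MAP kinase, measured 4.63, 5.39, 5.36, 5.00 and 4.83 at 0 h, 3.10 to 5.00 at 24 h and 4.24 to 5.43 at 48 h. Dusp6, a phosphatase of the MAP kinase ERK, measured 6.66 to 7.64 at 0 h, 5.85 to 6.98 at 24 h and 6.55 to 7.19 at 48 h. Both overlapped at every step.

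Of 25 measured genes of receptor signalling and cAMP, 17 passed the 0 h level minimum, and Rgs2 and Galr1 are members. Of the other 23, limma called 2 higher and 1 lower at 24 h than at 0 h, shares close to the 5.44% and 6.66% of all genes. It called 0 between 48 h and 24 h, and 1 higher without 24 h replicate 6. The 2 higher were Prkar1a, a regulatory subunit of protein kinase A (0.40 ± 0.08, adjusted p = 0.00379), and Pde8b, a cAMP phosphodiesterase (0.49 ± 0.12, adjusted p = 0.0118). The lower was Casr, the calcium-sensing receptor (-0.51 ± 0.10, adjusted p = 0.00147). Pde4b, another phosphodiesterase, did not pass (0.47, adjusted p = 0.0912), although it passed without 0 h replicate 1 (0.68, adjusted p = 0.000733).

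The seventh group is 7 metabolic enzymes and regulators, with median differences of -0.69 and 0.44. Cbs, which makes cystathionine from homocysteine, measured 9.04, 8.92, 8.47, 8.19 and 8.62 at 0 h, 7.79 to 8.40 at 24 h and 8.58 to 9.12 at 48 h. All its 48 h arrays lay above all its 24 h arrays, and 135% was regained. It left the set without 0 h replicate 1. Bckdhb, a subunit of the complex that breaks down branched-chain amino acids, measured 8.58, 8.63, 8.27, 8.29 and 8.45 at 0 h, 7.20 to 7.73 at 24 h and 7.63 to 8.15 at 48 h. Bco2, a carotenoid-cleaving enzyme, stood clear of both other times at 24 h (-0.61 ± 0.15, then 0.44 ± 0.10). Ppp1r3c, which brings a phosphatase to glycogen, differed by -1.07 ± 0.20 and 0.48 ± 0.25, and Pdp1, which activates pyruvate dehydrogenase, by -0.69 ± 0.15 and 0.47 ± 0.20. Dgke, a diacylglycerol kinase, differed by -0.76 ± 0.17 and 0.36 ± 0.15, and Pltp, a phospholipid transfer protein, by -0.50 ± 0.18 and 0.44 ± 0.20.

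The 57 members outside these groups include several of the clearest. Dapl1 (chr2:59484653-59505020, GRCm38.p6) measured 6.98, 7.10, 7.54, 7.50 and 7.14 at 0 h, 4.86, 5.23 and 5.72 (lowest, median, highest) at 24 h and 5.92, 5.98 and 6.29 at 48 h. The 3 times did not overlap. Its mean was 4.05-fold lower at 24 h than at 0 h, and 38.7% was regained. Utrn, which encodes utrophin, a relative of dystrophin, measured 10.42, 10.52, 10.29, 10.38 and 10.39 at 0 h, 9.33 to 9.73 at 24 h and 9.91 to 10.21 at 48 h. Those 3 times did not overlap either. Adora3, an adenosine receptor, measured 8.08, 7.98, 7.61, 7.83 and 7.84 at 0 h, 7.17 to 7.46 at 24 h and 7.70 to 8.14 at 48 h, returning to its 0 h range. Echdc2, a mitochondrial protein, measured 6.92, 7.11, 7.19, 7.05 and 6.96 at 0 h, 6.23 to 6.81 at 24 h and 7.03 to 7.25 at 48 h, and was likewise back in range.

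Some members outside the groups regained little. Rrm2, a subunit of the enzyme that makes deoxyribonucleotides for DNA synthesis, measured 5.41, 5.12, 5.23, 5.59 and 4.68 at 0 h, 2.61 to 3.55 at 24 h and 3.29 to 4.38 at 48 h. Its 24 h mean of 3.16 lay below the table's median, so its 24 h difference of -2.05 is a lower bound in size. Its 48 h mean of 3.69 is close to that median too, so its gain of 0.53 cannot be told from background. Further Rrm2 probe sets, with 0 h means of 3.86 and 2.91, differed by -0.91 and -0.04 at 24 h. Of the other 26 measured genes of cell cycle and DNA replication, limma called 10 lower and 0 higher at 24 h than at 0 h (6.66% and 5.44% of all genes) and 0 between 48 h and 24 h. Dock10 measured 7.54, 7.73, 7.17, 7.63 and 7.66 at 0 h, 4.88 to 6.39 at 24 h and 5.44 to 6.97 at 48 h, and regained 20.4%. Lgals12, a galectin, regained 29.2%.

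Other members were uneven among batches. Rassf10, a Ras association domain protein, measured 8.32, 8.41, 7.51, 7.56 and 6.57 at 0 h, with 5.57, 6.97 and 7.26 (lowest, median, highest) at 24 h and 6.95, 7.46 and 8.20 at 48 h. Its lowest arrays at both 0 h and 24 h were those of batch 6. Rab6b, a small GTPase of vesicle traffic, stood at 4.81 at 0 h in batch 6 against 6.92 to 7.41 in the other batches. At 24 h it measured 2.81 in batch 5 and 4.16 in batch 6 against 6.25 to 6.82, and at 48 h 3.64 and 5.06 against 6.42 to 6.87. Its differences of -1.16 ± 0.80 and 0.38 ± 0.83 were small against that spread, which the SEs take in because they do not pair arrays by batch. Within batches, Rab6b was lower at 24 h than at 0 h in 5 of 5 and higher at 48 h than at 24 h in 6 of 6. The low values of batch 5 enter its 24 h and 48 h means but not its 0 h mean. Selenbp1, a selenium-binding protein, measured 6.27 in batch 1 at 24 h, while the other 24 h arrays read 4.02 to 4.64.

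Of all 105 members, 98 are protein-coding. The other 7 include 5 long noncoding RNAs (Plut, Mir670hg, 4931431B13Rik, 1110019D14Rik and B330016D10Rik) and the small nucleolar RNA gene Snord104, and 6330509M05Rik had no entry in the gene table. The members lie on all chromosomes except Y, with the most, 11, on chromosome 4 and 10 on chromosome 10. C1qa and C1qb are neighbours on chromosome 4. At 0 h, 11 members had a mean of at least 9 and 27 a mean under 6, so the set holds abundant and scarce transcripts alike.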

How the data were processed

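Expression was measured in pooled mouse islets on single-colour arrays, with 5 arrays at 0 h, 6 at 24 h and 6 at 48 h, grouped by the labels and the design text. The authors deposited 1 log2 value for each probe set on each array, made with RMA (no version is named), per the submitters' processing notes. RMA aligns the arrays with each other, which takes out any change common to most transcripts, and it compresses differences of weak transcripts. That the logarithm has base 2 was inferred from the range of the values, 1.55 to 13.81. No detection call was used, and levels close to 3.52, the median of the table, cannot be told from background. The number of arrays limits the precision.

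Of 45101 probe sets, 64 controls were left out. The platform annotation gave 1 symbol to 34945 of the others and several to 932, and did not list 9160. Of 18193 genes, 9010 had several probe sets, and the one of highest mean over the 17 arrays stood for the gene. Of the members, 104 were found by Entrez ID in the RefSeq gene table (GRCm38.p6). Means, SDs and differences were computed in Python 3.11.15 with pandas 2.3.3 and numpy 2.4.6, and the SE of a member's difference combines the SDs of both times. Genes that are not members were tested with limma 3.58.1 in R 4.3.3 (lmFit, eBayes, 1 mean per time over all 17 arrays, Benjamini-Hochberg adjustment over 45037 probe sets, threshold 0.05), whose SEs are given for them. The fits and the rule were tested on simulated data.

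The members, the gene lists and the role groups were chosen with earlier results of these data known. Named members are the 12 whose smaller difference was highest, the 8 lowest at 24 h, up to 4 of each list, those nearest each threshold and those with a contrary probe set. Named genes outside the set are up to 4 of each role list with at least 2 members, by lowest limma p at 24 h. Exceptions are marked or were named to complete a group or a short count. Marker sums add the linear values of a list's genes.

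Alternatives tried were a fixed or random block for the batch, the 5 complete batches, medians, median centring, quantile normalization again, other probe set summaries, looser and stricter thresholds, a filter on level, another variance prior and leaving out each array. Leaving out both arrays that stood apart was chosen after seeing the data. The design text pairs arrays by batch. Over 16 same-batch pairs, deviations from the time means had a median correlation of 0.00545 (range -0.159 to 0.274), against -0.00978 for other pairs.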

Additional observations from a re-analysis of the deposited data

Results flagged for a closer look

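Among the named members and the members' mean, 102 sets of arrays of 1 time were checked for a lone array far from the others, and 6 had one. Chance flags about 1 in 20 such sets. At 24 h, replicate 6 was low in Trpm3, at 4.68 where the others measured 5.75 to 6.38, and in Rassf10, at 5.57 against 6.82 to 7.26. At 24 h, replicate 5 was low in Tnr, at 5.55 against 6.02 to 6.10, in Cybb, at 3.59 against 3.92 to 4.10, and in C1qa, at 4.32 against 5.57 to 6.05. At 48 h, replicate 3 was high in Dapl1, at 6.29 against 5.92 to 6.02. C1qa no longer met the rule without 24 h replicate 5, whereas Cybb, Dapl1, Rassf10 and Trpm3 met it with any 1 array left out.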

How the results depend on the processing

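The size of the set depends on its thresholds. A 24 h shortfall of 0.4 and a gain of 0.25 gave 264 genes, 0.7 and 0.5 gave 32, a 0 h mean above 7 gave 44, and the mean of all probe sets of a gene gave 64, of which 61 were among the 105. The batch as a block (replicate block) gave 100 genes (95 shared) and the 5 complete batches 100 (79 shared). Centring gave 112 (97 shared), quantile normalization 90 (87 shared), and leaving out both arrays that stood apart 98 (71 shared). Leaving out 1 array gave 84 to 132, lowest without 24 h replicate 5 and highest without 24 h replicate 4. The 16 members with no overlap at 24 h became 28 in the 5 complete batches, 10 under quantile normalization or the mean of probe sets, 31 and 9 under the looser and stricter thresholds, 26 without both arrays that stood apart, and 16 to 31 with 1 array left out (25 without 24 h replicate 1 or 4, 31 without 24 h replicate 3, 28 without 48 h replicate 5). The cause was not tested, except that fewer arrays make an overlap less likely by construction. The median share regained stayed between 59.3% and 65.9% in all alternatives run. Each alternative set a least shortfall and a least gain, which shape that share. In a batch left out, 83.4% of pairs moved both ways under the stricter thresholds and 81.4% above 7, against 75.6%; this was not computed for the block, for medians or with 1 array left out.

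Between 48 h and 24 h limma called 200 probe sets, 224 with the replicate block, 324 without both arrays that stood apart, and 102 (without 48 h replicate 2) to 263 with 1 array left out (131 without 24 h replicate 2). The share called higher was 60.0% as deposited, 73.4% after centring and 46.2% after quantile normalization. At 24 h against 0 h it called 3862 (3041 to 3869 with 1 array left out), and at 48 h against 0 h 3815 (2862 to 4221), 55.1% of them higher, or 67.8% after centring. The 33 named members kept both directions under the block, centring and leaving out each array. The calls for named genes outside the set at 24 h against 0 h held in all 25 alternatives, except that Pde4b passed in 1. The block changed the call of Casr at 48 h against 0 h (-0.33 without it, -0.30 with it), which no result above uses.

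Few arrays, pooled animals and a 0 h mean without batch 5 limit the precision, and weak transcripts near 3.52 are compressed.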
